A study of Zea mays with 18 samples.

Results

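In the third leaf of the maize hybrid An'nong 591, 73 of 39471 genes were abundant in control seedlings and remained abundant after heat. A gene was taken as a member when its mean FPKM (counted fragments relative to exonic length and to the total of the library) was at least 300 over the 3 control libraries and also at least 300 over the 3 heat libraries. The members were thus chosen from the same levels that are described here, so their levels and their CF1 vs. F1 differences are given as a description, without p-values. Genes count as expressed here when their mean FPKM reached 1 in either group, and of the 20621 such genes 99.1% lay below the threshold in control and 99.2% under heat. A further 109 genes reached it only in control and 93 only under heat. The members were therefore 40.1% of the 182 abundant genes of the control and 44.0% of the 166 abundant genes of the heat treatment.

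The study compared seedlings of this F1 hybrid and of its parental lines to find genes that respond to heat, and the 6 libraries of the hybrid are used here. Control seedlings (CF1) grew in a greenhouse at 28 °C by day and 23 °C by night, with 16 h of light and 8 h of darkness. Heat-treated seedlings (named F1 throughout, after the hybrid) were kept at 42 °C by day and 35 °C by night for 2 d once the third leaf had expanded. Each group has 3 biological replicates of whole-leaf RNA, and the libraries held 12266758 to 14643512 counts on genes. Both groups share 1 genotype, so the values hold for this hybrid in a greenhouse only. The leaf origin was visible in pep1 of the mesophyll and me3 of the bundle sheath, which were among the members, whereas the meristem gene kn1 and the kernel genes zp15, zp16, zp27 and FL2 had at most 0.10 FPKM in any of the 6 libraries.

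Maize fixes carbon by C4 photosynthesis. PEP carboxylase captures carbon in mesophyll cells, the resulting acid is moved into bundle sheath cells and decarboxylated there, and pyruvate phosphate dikinase regenerates the acceptor. Light is collected by antenna proteins around the photosystems, and plastid enzymes of the Calvin cycle turn the fixed carbon into sugars, so that transcripts of these steps are among the most abundant of a green leaf.

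Most members had a lower mean FPKM under heat than in control, and 39 of the 73 kept more than 0.5 of their control FPKM. The count of 39 depends on the scale, as 53 members were called at least 2-fold lower with the TMM normalization described below. By mean FPKM, 57 members were lower in F1 and 16 were higher, with a median ratio of F1 to CF1 of 0.508. The ratio was at most 0.25 for 19 members and at most 0.5 for 34, lay between 0.5 and 1 for 23 and between 1 and 2 for 14, and was at least 2 for 2. Members named for photosynthesis were all on the lower side, whereas the 16 higher members were genes of other kinds or genes without a telling name. Of the 73 members, 60 had an FPKM of at least 300 in every library and 13 had at least 1 library below it.

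**Figure D1:**
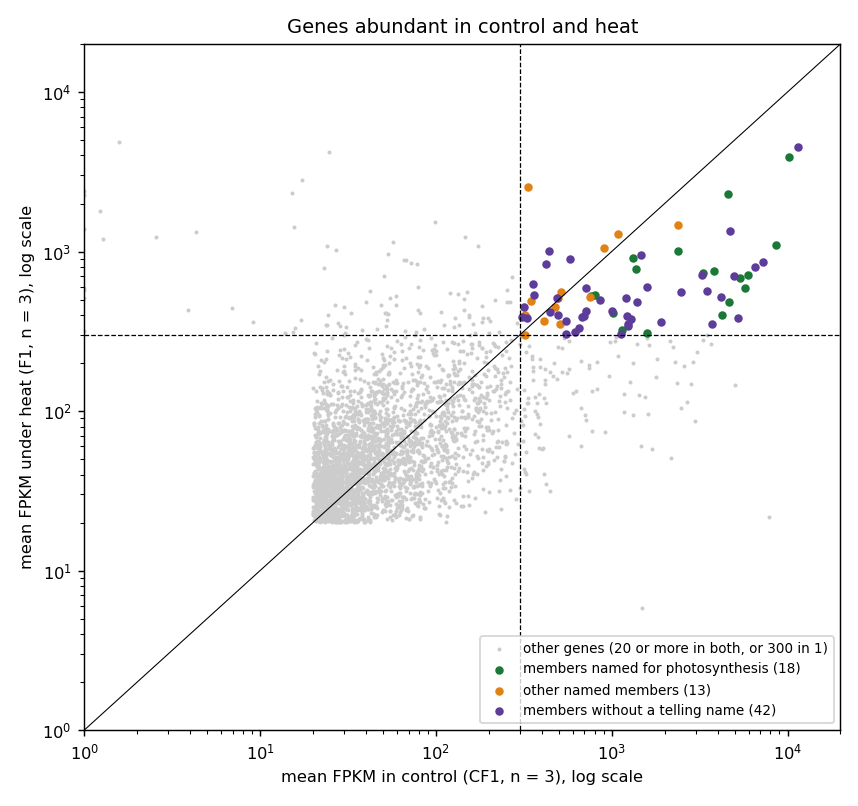
Mean FPKM of each gene in CF1 (x axis, log scale, n = 3) and in F1 (y axis, log scale, n = 3), with the members coloured, dashed lines at 300 FPKM and a diagonal of equal level. Grey points are other genes at 20 FPKM or more in both groups or 300 or more in either (values below 1 are drawn at 1), and 57 of the 73 members lie below the diagonal.

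The spread of levels among the members was wider in control than under heat. Their mean FPKM ran from 310.6 to 11451 in CF1, a 36.9-fold range with a median of 1135, and from 300.6 to 4539 in F1, a 15.1-fold range with a median of 513. The SD of the log2 level over the members was 1.48 in CF1 and 0.83 in F1. Of the 40 members above 1000 FPKM in CF1, 39 were lower in F1 and 8 of the 40 were still above 1000. The exception was the lipoxygenase gene lox10. Of the 16 members between 500 and 1000 FPKM in CF1, 13 were lower in F1, and of the 17 below 500, 12 were higher. The threshold in F1 leaves a member of low control level little room below it, so this relation of level and ratio follows in part from the rule.

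Members made up 9 of the 10 most abundant genes of CF1 and 4 of the 10 of F1. In CF1 they took 25.5%, 26.1% and 26.4% of the counts of the 3 libraries, and in F1 9.44%, 8.75% and 9.91%, or 26.0 ± 0.43% and 9.37 ± 0.58% (SD, n = 3). The 10 highest members alone went from 12.8 ± 0.20% to 3.33 ± 0.27% of the counts (SD, n = 3). All CF1 libraries therefore lay above all F1 libraries in this share. The 109 genes abundant only in CF1 took 18.5 ± 1.47% and 2.64 ± 0.17%, and the 93 genes abundant only in F1 took 1.31 ± 0.12% and 12.2 ± 0.44% (SD, n = 3). All other genes took 54.2% of the counts in CF1 and 75.8% in F1.

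**Figure D2:**
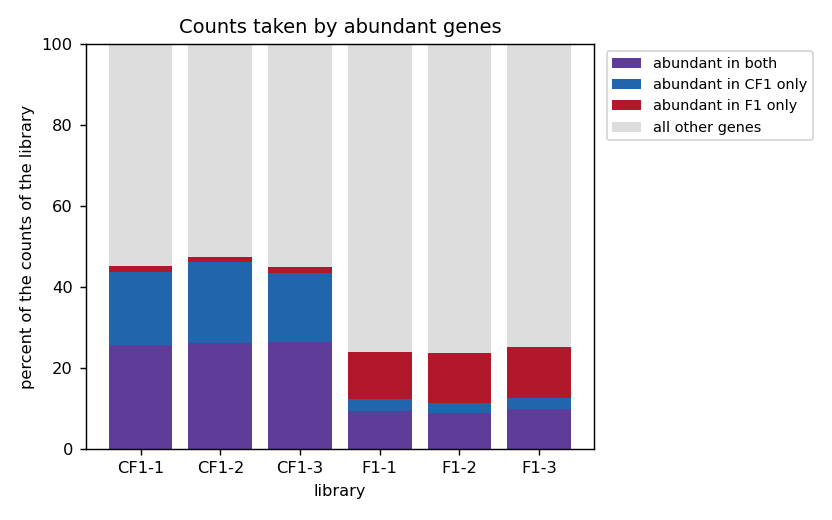
Percent of the counts of each library (y axis, from 0 to 100) taken by the 73 genes abundant in both groups, by genes abundant in CF1 only or F1 only, and by all other genes, for the 6 hybrid libraries (x axis). The members take about 26.0% in CF1 and 9.37% in F1.

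These shares bear on every fold change, because FPKM is relative to the total of a library. F1 was compared with CF1 by the quasi-likelihood test of edgeR on the counts. TMM normalization sets the libraries to a common level over most genes, and a call needed a 2-fold change together with an FDR no higher than 0.05. With TMM, the median log2 fold change of all expressed genes was 0.05. With library totals, the scale of the FPKM, it was 0.85, so a member of equal FPKM in both groups was below most genes. The median over the members was -1.78 with TMM and -0.98 with library totals, and their values ran from -4.56 to 2.12 and from -3.77 to 2.92.

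With TMM, 53 members were called lower in F1, where 19.9% of all expressed genes were, and 1 was called higher, where 24.1% were. With library totals, 34 members were called lower and 2 higher, where 9.21% and 45.0% of all expressed genes were. The 34 were all among the 53. In the deposited FPKM, the F1 libraries lay entirely below the CF1 libraries for 51 members and entirely above them for 8, where 16.2% and 64.3% of the expressed genes did, and the groups overlapped for 14. Since the rule used both group means, nothing is read from these counts about the members. With TMM, 12 members had log2 fold changes below 0 that were above 0 with library totals, and none of the 12 was called on the TMM scale. The standard errors of the members lay between 0.12 and 0.24.

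**Figure D3:**
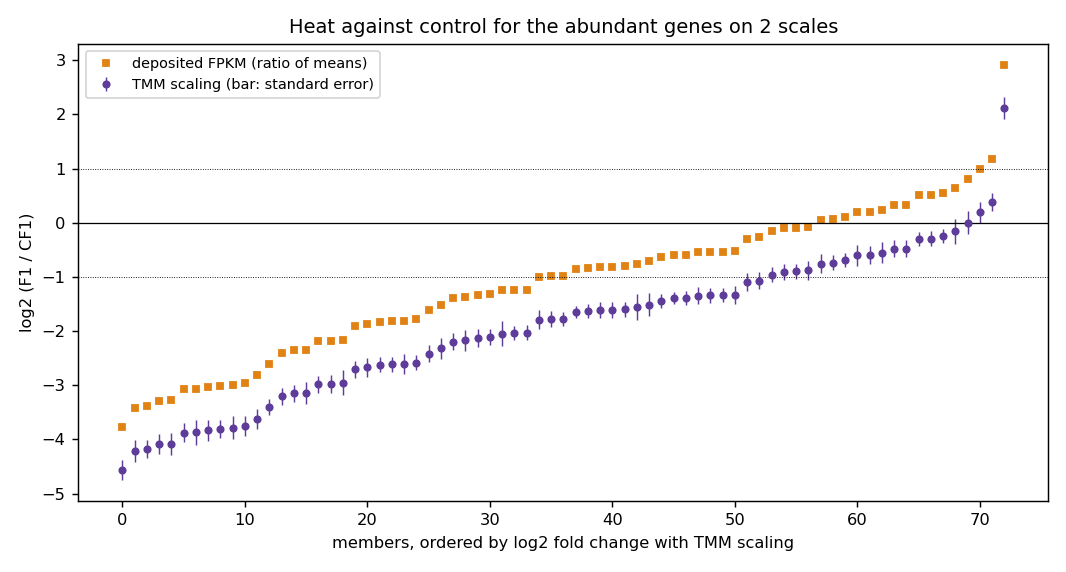
Log2 fold change of F1 over CF1 (y axis) for the 73 members (x axis, ordered by the TMM value), on the TMM scale with standard errors and as the ratio of mean deposited FPKM. Dotted lines mark the 2-fold threshold, and the TMM values, from -4.56 to 2.12, lie below the FPKM ratios for every member.

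The members hold 5 genes of the C4 cycle by name, which were taken from the members themselves, and all 5 were lower in F1 on both scales. The gene pdk1 (GRMZM2G306345), for pyruvate phosphate dikinase, had an FPKM of 10440.4, 9489 and 10481 in the CF1 libraries and of 3939, 3583 and 4234 in the F1 libraries. It was the second most abundant gene of CF1 and still the fourth of F1, although its lowest CF1 library was over its highest F1 library. The gene pep1 (GRMZM2G083841), for PEP carboxylase, had 5969, 5486 and 6519 in CF1 and 618, 633 and 890 in F1, an 8.40-fold lower mean (log2 fold change -3.87, standard error 0.23, with TMM). These genes work at consecutive steps in the mesophyll, and they kept unequal shares of their control level, 38.7% for pdk1 and 11.9% for pep1.

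The gene me3 (GRMZM2G085019), for the NADP-malic enzyme that releases carbon dioxide in the bundle sheath, had 4421, 4823 and 4438 FPKM in CF1 and 2627, 1907 and 2344 in F1. It went from rank 15 to rank 9 among all genes, while its mean was 1.99-fold lower. The gene mdh6 (GRMZM2G129513), for the NADP-malate dehydrogenase that forms the transported acid, had a mean of 1367 ± 122.6 in CF1 and 777 ± 27.4 in F1 (SD, n = 3). The gene pdrp1 (GRMZM2G131286), for the regulatory protein that switches pyruvate phosphate dikinase on and off, had 800.2 ± 54.6 and 533 ± 11.5 (SD, n = 3). All 5 were called lower with TMM, where 19.9% of all expressed genes were. With library totals pep1 and pdk1 were, against 9.21% of all expressed genes. In RNA of whole leaves, fewer cells of a type and less RNA per cell cannot be told apart.

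Among the Calvin cycle genes, those for the plastid form of glyceraldehyde-3-phosphate dehydrogenase had 9.74- and 5.08-fold lower means in F1, against at most 2.59-fold for the C4 genes other than pep1. From their control means of 1367 and 800.2 FPKM, mdh6 and pdrp1 could not be 5.08-fold lower and still be members. Nothing is therefore read from this comparison. The gene gpa1 (GRMZM2G337113), for its A subunit, had 5575, 5626 and 6019 FPKM in CF1 and 551, 567 and 650.01 in F1. Its partner gpb1 (GRMZM5G845611), for the B subunit, had 3582, 3568 and 4294 in CF1 and 648, 683 and 924 in F1. The A subunit was above the B subunit in each CF1 library and below it in each F1 library, where its mean FPKM was 0.785 times that of the B subunit. Both were called lower on both scales, with TMM log2 fold changes of -4.08 (standard error 0.18) and -3.14 (standard error 0.21).

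The cytosolic forms of this enzyme belong to glycolysis, and they were members at a much lower control level. The gene GPC1 (GRMZM2G046804), which the study used as the reference of its qRT-PCR, had 530.4, 451 and 548 FPKM in CF1 and 363, 341 and 347 in F1. All F1 libraries were below all CF1 libraries, and its log2 fold change was -1.34 (standard error 0.13) with TMM and -0.54 with library totals, so that it was called lower on the TMM scale only. The gene gpc2 (GRMZM2G180625) had 412 ± 52.2 and 369 ± 22.1 (SD, n = 3), with overlapping groups, and its log2 fold change of -0.96 (standard error 0.14) with TMM was not called, but without the second CF1 library (-1.05) or the second F1 library it was. The other cytosolic genes, gpc3 and gpc4, were far from the threshold, at 4.43 and 1.04 FPKM in CF1 and 14.8 and 7.22 in F1. Of the 6 genes of this family, 3 were called lower and 1 higher with TMM, and 2 lower and 2 higher with library totals. The shares of all expressed genes were 19.9% lower and 24.1% higher with TMM, and 9.21% and 45.0% with library totals. How reads shared by such similar copies were counted was not examined.

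For 2 members the study designed qRT-PCR primers, which mark the stretch of the transcript that its own assay read. They are GPC1, the gene against which every qRT-PCR value of the study was set, and GRMZM2G057186, one of the heat response genes it tested, and they are printed 5′ to 3′.
GAPDH-F: atcaacggcttcggaaggat
GAPDH-R: ccgtggacggtgtcgtactt
GRMZM2G057186-F: atttcacaaaagttggccag
GRMZM2G057186-R: aataacatttggagcccgat
Each primer has 20 bases. GRMZM2G057186 had 988, 715 and 1325 FPKM in CF1 and 463, 388 and 429 in F1. Its CF1 libraries spread widely, with a CV of 30.3% against 8.76% in F1, yet the lowest of them lay above all of F1. The log2 fold change was -2.05 (standard error 0.23) with TMM and -1.24 with library totals. Set against GPC1 within each group, its mean FPKM was 1.98 times that of GPC1 in CF1 and 1.22 times in F1.

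The gene rca1 (GRMZM2G162200), for Rubisco activase, which keeps the carbon-fixing enzyme of the Calvin cycle active, was a member by a small margin. It had 1470.5, 1652 and 1624 FPKM in CF1 and 353, 276 and 302 in F1, so that 1 F1 library lay under the threshold. Its 3 relatives by name were on either side of the rule. The small subunit genes ssu1 and rbcS were abundant only in CF1, with 1820.1 and 2359 FPKM there and 213 and 149.6 in F1. The second activase gene, rca3 (GRMZM2G162282), was abundant only in F1, with 27.2 ± 4.03 FPKM in CF1 and 1021 ± 56.4 in F1 (SD, n = 3). Of these 4 genes, 3 were called lower and rca3 higher on both scales. Over all expressed genes, 19.9% were called lower and 24.1% higher with TMM, and 9.21% and 45.0% with library totals. The gene shbp1 (GRMZM6G741210), named for sedoheptulose bisphosphatase of the same cycle, had 1143 ± 73.7 and 323 ± 28.0 FPKM (SD, n = 3). A second gene model under that name, GRMZM5G814089, was abundant in CF1 only, at 368 and 99.4 FPKM, and as the reference gives both models as 1 gene, its reads may be split between them.

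**Figure D4:**
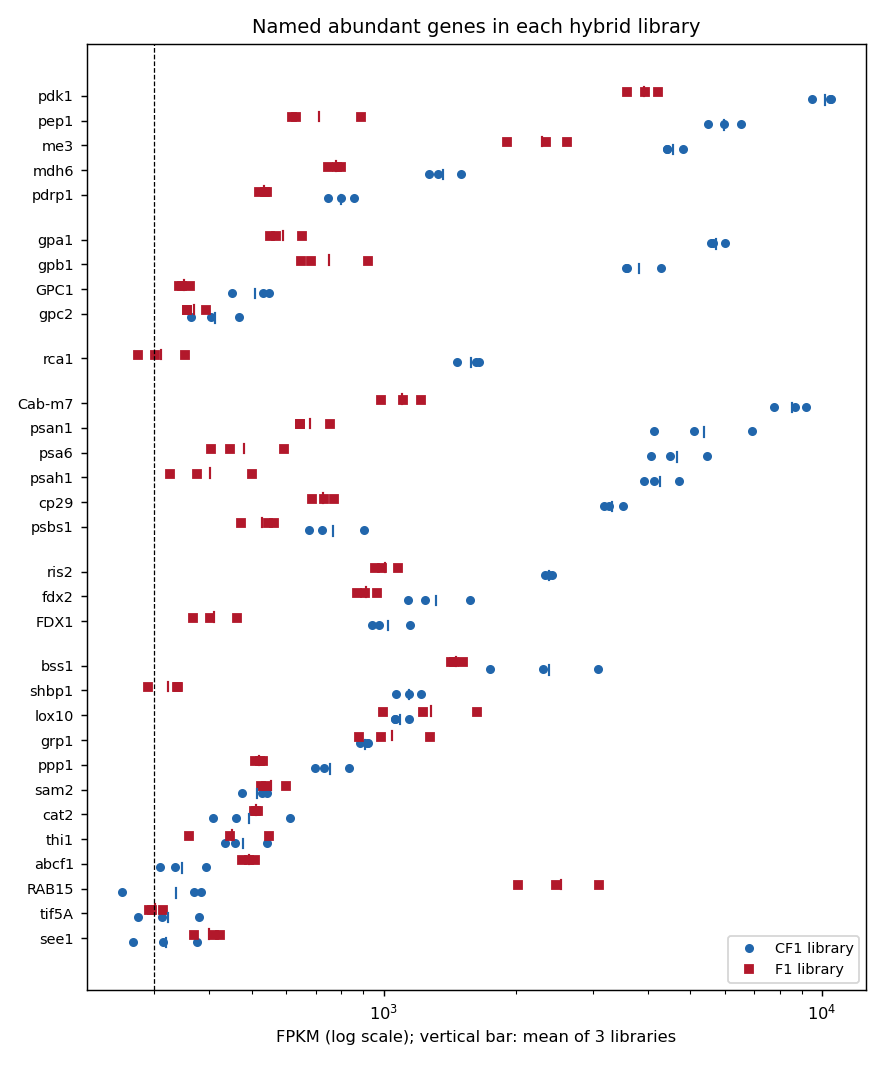
FPKM (x axis, log scale) of the 31 members with a telling name in each of the 3 CF1 libraries and the 3 F1 libraries, grouped as C4 cycle, glyceraldehyde-3-phosphate dehydrogenase, Rubisco activase, photosystems and antenna, electron carriers, and other genes. Vertical bars are group means and the dashed line is 300 FPKM. The F1 libraries lie left of the CF1 libraries for all 18 photosynthesis genes, while RAB15 lies to the right.

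Of the photosystem and antenna genes taken by name, 6 of 14 were members, 6 were abundant in CF1 only and 2 in neither group. All 14 were called lower in F1 with TMM and 12 with library totals, where 19.9% and 9.21% of all expressed genes were. As the 14 were listed by name after the values had been seen, nothing is read from these counts. The most abundant of the members was the antenna gene Cab-m7 (GRMZM2G402936), with 8695, 9199.5 and 7763 FPKM in CF1 and 1215, 988 and 1105 in F1. Its relative cab-m1 had nearly the same control level, 7863 ± 2312 FPKM, but only 21.8 ± 13.4 in F1 (SD, n = 3). The means of Cab-m7 and cab-m1 thus differed 7.76-fold and 361-fold between the groups. The remaining antenna genes that were abundant in CF1 only, cab-m9, lhcb4, lhcb5 and lhcb6, kept between 41.6 and 163 FPKM in F1. The antenna genes are alike in sequence, and the counting of reads shared by them was not examined.

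The minor antenna gene cp29 (GRMZM2G033885) had 3267, 3525 and 3177 FPKM in CF1 and 732, 687 and 769 in F1. Its groups were narrow and far apart, with CVs of 5.43% and 5.65%. The photosystem I subunit genes psan1 (GRMZM2G080107) and psah1 (GRMZM2G451224) had 5390.1 ± 1404 and 4267 ± 404 FPKM in CF1 and 680.4 ± 63.8 and 401 ± 90.2 in F1 (SD, n = 3). The gene psa6 (GRMZM2G012397) had 4674 ± 712 and 481 ± 100.3 (SD, n = 3). Their means were 7.92-, 10.6- and 9.71-fold lower in F1, against 7.76-fold for Cab-m7. Another gene of photosystem I by name, psad1, was abundant in CF1 only and had a 29.4-fold lower mean in F1.

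The gene psbs1 (GRMZM2G077333) had a lower control level than the other photosystem members. It encodes the PsbS protein, which lets the antenna discharge excess light energy as heat, and it had 724, 677 and 901 FPKM in CF1 and 564, 474 and 544 in F1. The groups did not overlap, and the mean was 1.46-fold lower. Its control mean was 767 FPKM, against 3323 (cp29) or more for the other photosystem members. The threshold in F1 thus left psbs1 less room for a lower mean, and nothing is read from its smaller difference. The log2 fold change of psbs1 was -1.34 (standard error 0.16) with TMM, and it was not called with library totals (-0.54).

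The genes of electron carriers among the members had means 1.44- to 2.48-fold lower in F1. The gene ris2 (GRMZM2G162748), named for the Rieske iron-sulfur protein, which passes electrons within the cytochrome complex between the photosystems, had 2390, 2423 and 2330 FPKM in CF1 and 1080.2, 955 and 992 in F1. The ferredoxin genes, whose products accept electrons from photosystem I, were unequal. FDX1 (GRMZM2G122337) had 1022 ± 111.5 FPKM in CF1 and 411 ± 48.6 in F1 (SD, n = 3), while fdx2 (GRMZM2G048313) had 1317 ± 230.3 and 913 ± 48.4 (SD, n = 3). All 3 were called lower with TMM, where 19.9% of all expressed genes were, and all but fdx2 with library totals, where 9.21% were. Among their relatives by name, fdx3 was abundant in F1 only, with 24.5 ± 3.62 FPKM in CF1 and 401 ± 5.45 in F1 (SD, n = 3). Under heat, fdx3 and the member FDX1 were thus at nearly the same level, from ones that lay far apart in control. The genes fdx5 and FDX6 reached the threshold in neither group.

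**Figure D5:**
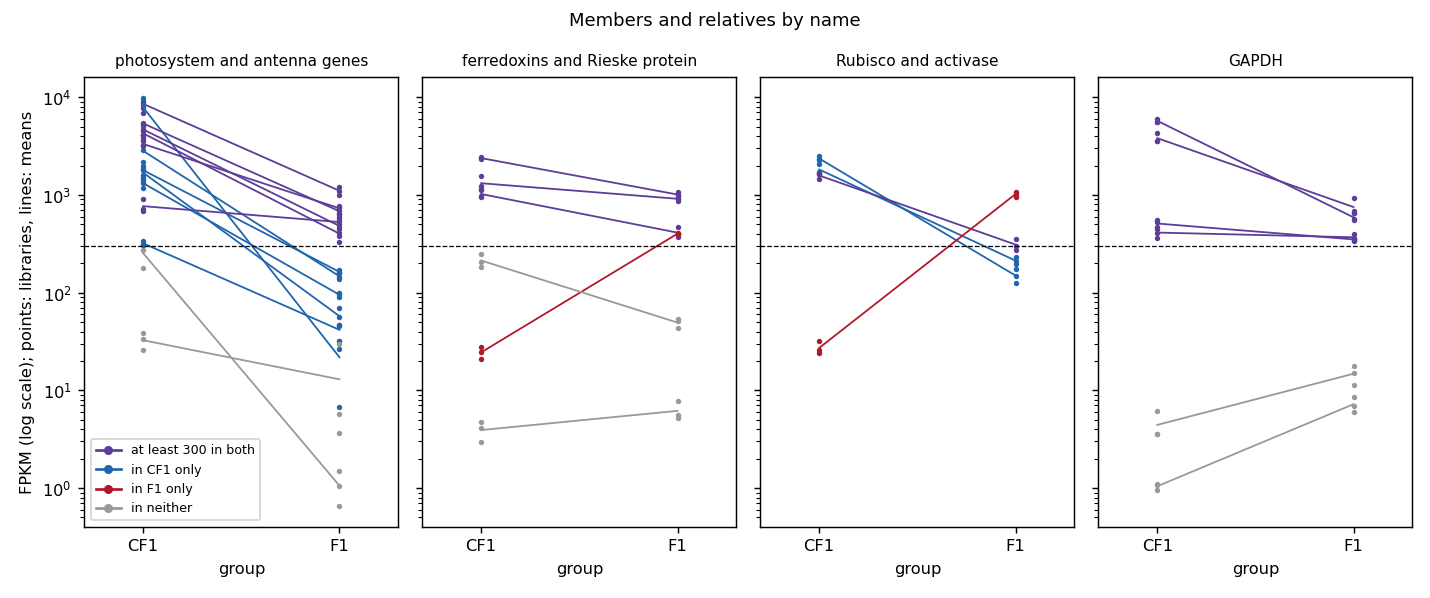
FPKM (y axis, log scale) of members and of other genes of the same family by name in CF1 and F1 (x axis), in panels for photosystem and antenna genes (14), ferredoxins and Rieske protein (6), Rubisco and activase (4) and GAPDH (6). Points are libraries, lines join group means, colours give the group in which a gene reached 300 FPKM, and rca3 and fdx3 are the only genes drawn as abundant in F1 alone.

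Together, the 18 members named for photosynthesis took 12.5 ± 0.22% of the counts in CF1 and 3.35 ± 0.28% in F1 (SD, n = 3). All 18 had a lower mean FPKM in F1, with a median ratio of 0.251, all 18 were called lower with TMM and 13 with library totals, where 19.9% and 9.21% of all expressed genes were. As the 18 were picked by level, nothing is read from these counts. The other 13 named members took 1.54 ± 0.12% and 1.81 ± 0.14% (SD, n = 3), with a median ratio of 1.04, and 7 of them had a higher mean FPKM in F1. The sets were grouped by gene name after the values had been seen, and the difference between them was not tested. Several of the other named members, such as see1 (319 FPKM) and tif5A (323 FPKM), lay just above the threshold in CF1. The rule leaves such genes little room for a low ratio, so nothing is read from the 2 medians.

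Only RAB15 (GRMZM2G165901) was called higher in F1 on both scales. It had 370.2, 383 and 253 FPKM in CF1 and 2023, 3103 and 2478 in F1, and went from rank 161 among all genes to rank 6. The lowest F1 library was far above the highest CF1 library, and the mean was 7.56-fold higher (log2 fold change 2.12, standard error 0.20, with TMM). It was also among the members with the widest spread between replicates, with CVs of 21.3% in CF1 and 21.4% in F1.

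The next largest ratios were those of genes to which the reference gives no telling name. GRMZM2G126361 had 436, 367 and 521 FPKM in CF1 and 915, 1040.01 and 1056 in F1. Its groups were clearly apart in FPKM, and it was called higher with library totals (1.19) but not with TMM (0.38, standard error 0.17). GRMZM2G106061 had 420.4 ± 103.4 and 839 ± 76.5 FPKM, GRMZM2G061876 had 356 ± 105.3 and 623 ± 60.3, and GRMZM2G082998 had 362 ± 38.3 and 533 ± 12.4 (SD, n = 3). In these 3 the F1 libraries also lay entirely above the CF1 libraries, as they did for 64.3% of the expressed genes. Their TMM log2 fold changes were 0.19, 0.003 and -0.25, and none was called. GRMZM2G169372 and the named gene abcf1 (GRMZM2G105570) had 1.42-fold higher mean FPKM in F1 and TMM log2 fold changes of -0.29 in both cases. GRMZM2G353444 had 646, 439 and 653 in CF1 and 1022, 632 and 1059 in F1, where the second library of each group was low and the groups overlapped.

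A set of members kept almost the same FPKM, and the means of the groups were within 1.2-fold of each other for 10. As the rule asks for at least 300 FPKM in F1, a member of low control level had little room for a lower mean. Nothing is therefore read from this count. The catalase gene cat2 (GRMZM2G090568), whose product removes hydrogen peroxide, had 460.2, 408 and 613 FPKM in CF1 and 518, 508 and 511 in F1. All 3 F1 libraries lay inside the range of CF1. The gene sam2 (GRMZM2G154397), named for S-adenosylmethionine synthesis, had 542, 528 and 474 in CF1 and 527, 600.2 and 538 in F1. The gene thi1 (GRMZM2G018375), for an enzyme of thiamine synthesis, had 541, 435 and 458 in CF1 and 360, 447 and 547 in F1. On the TMM scale these genes had log2 fold changes of -0.75, -0.69 and -0.88, below the median of all genes, and none was called on either scale, though thi1 was called lower with TMM without the third F1 library (-1.05).

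Similar values were found for tif5A (GRMZM2G144030), named for translation initiation factor 5A, with 323 ± 52.7 and 300.6 ± 11.6 FPKM, and for the unnamed GRMZM2G009443, GRMZM2G010349 and GRMZM2G158835, with ratios of 1.04, 0.936 and 1.15. The limit that the rule sets on lower means holds for these genes as well. The lipoxygenase gene lox10 (GRMZM2G015419), whose product acts on fatty acids and gives rise to leaf volatiles, had 1143, 1062 and 1061 FPKM in CF1 and 1230.2, 996 and 1631 in F1. Its CF1 libraries were close together and its F1 libraries reached to both sides of them. The gene grp1 (GRMZM2G080603), named for a glycine-rich protein, had 908 ± 19.4 and 1047 ± 204.5 (SD, n = 3), and the cysteine protease gene see1 (GRMZM2G038636) had 319 ± 54.0 and 401 ± 28.1 (SD, n = 3). The FPKM means of lox10, grp1 and see1 were higher in F1, but their TMM log2 fold changes were -0.56, -0.59 and -0.48, and none was called on either scale. Relatives by name were taken for cat2, thi1 and tif5A only, 1 gene each, and these were below the threshold in both groups. No relatives of lox10, sam2, grp1 or see1 were examined. The catalase gene cat1 had 44.5 FPKM in CF1 and 124 in F1, thi2 had 23.6 and 212, and eif5a had 233 and 155.8.

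Of the remaining named members, bss1 (GRMZM2G168552) had 2304, 1752 and 3091 FPKM in CF1 and 1445, 1423 and 1519.9 in F1. The CF1 libraries differed by far more than the F1 libraries, with CVs of 28.3% and 3.48%. The gene ppp1 (GRMZM2G090718) had 755 ± 70.8 and 521 ± 10.5 (SD, n = 3). A second gene model of that name, GRMZM6G300210, just reached the threshold in CF1 (326) and not in F1 (235), and the reads of what the reference gives as 1 gene may again be split.

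The 42 members without a telling name took 11.9 ± 0.28% of the counts in CF1 and 4.21 ± 0.25% in F1 (SD, n = 3), and 33 of them were lower in F1 by mean FPKM. They include the most abundant member, AC207722.2_FG009, with 11274, 12425 and 10653 FPKM in CF1 and 4353, 4595 and 4669.5 in F1. It was first among all genes in CF1 and second in F1, while its mean was 2.52-fold lower. GRMZM2G046284 had 4681 ± 566 and 1340.2 ± 181.4 FPKM (SD, n = 3). GRMZM2G092311 had 7284 ± 564 and 863 ± 90.6 and GRMZM2G013342 had 6502 ± 979.9 and 795 ± 77.9 (SD, n = 3), which is 8.44- and 8.18-fold lower in F1.

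The lowest ratio of all members was that of GRMZM2G085646, at 0.0734. It had 5079, 5860.2 and 4743 FPKM in CF1 and 417, 336 and 398 in F1 and went from rank 10 to rank 117. The F1 libraries were close to the threshold, and a lower level would have taken the gene out of the set. GRMZM2G016066 had 3700.3 ± 458 and 354 ± 34.4 (SD, n = 3), a 10.5-fold lower mean. The 8 members with the lowest ratios, which also include psah1, gpa1, psa6, GRMZM2G092311, pep1 and GRMZM2G013342, all had a mean of at least 3700.3 FPKM in CF1. As the rule asks for at least 300 FPKM in F1, ratios this low need a high control level, so nothing is read from it.

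Close to the threshold, the members with the lowest smaller group mean were tif5A (300.6 FPKM in F1), GRMZM2G089136 (1135 in CF1 and 302.8 in F1) and GRMZM5G885392 (547 in CF1 and 304.6 in F1). Just outside were GRMZM2G472852 with 3463 and 297.8 FPKM, GRMZM2G087570 with 304.1 and 294.5, and GRMZM2G016677 with 1063 and 290.6. The genes just outside had SDs of 65.9, 40.2 and 13.1 between their F1 libraries, so that the threshold separated levels within the spread of the replicates.

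Replicates differed little for most members. The median CV was 9.87% in CF1 and 8.97% in F1, and 36 of the 73 members varied more in CF1. As every member had at least 3389 counts in each library, counting error alone would give a CV of at most 1.72%. The steadiest were GRMZM2G174984 with CVs of 1.27% and 2.74%, GRMZM2G174107 with 3.57% and 3.75%, and ris2 with 1.99% and 6.36%. GRMZM2G022958 had the widest control values, 656, 502 and 993 FPKM, a CV of 35.0%, and RAB15 and GRMZM2G353444 varied by more than 20% in both groups. The members were slightly shorter than other genes, with a median exonic length of 1650 bases against 1846 over the expressed genes.

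Within the control group, the second and the third library departed from the group mean in opposite senses that went with the direction of the members. The second was the lowest of its group for 12 of the 16 members with a higher mean in F1, with a median deviation of -13.6% from the group mean, and the highest for 14 of the 19 members at a ratio of 0.25 or less, with a median deviation of 7.57%. The third library had median deviations of 13.0% for the 16 members and of -5.08% for the 19. Over all 73 members the second library was the lowest for 37 and the highest for 24, and the third was the highest for 42 and the lowest for 22. Under heat, the second library was the lowest of its group for 49 members. These departures were described after the values had been seen, and their part in the results was not tested. Without the second CF1 library, 2 more members, tif5A (-1.02) and gpc2 (-1.05), passed the 2-fold threshold with TMM. Without the second F1 library gpc2 passed it as well.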

How the data were processed

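RNA of the third leaf was sequenced by the authors, who aligned the reads to the maize B73 genome (RefGen_v3). Per the labels and the methods of the study, HISAT2 (2.0.1) and HTSeq (0.6.1) were used for alignment and counting, whereas for the authors' own comparisons, not used here, the labels name DESeq 1.10.1 and the methods DESeq2. They deposited the count of each gene as counted, without normalization, and FPKM values, which are counts divided by the exonic length and the library total. The exonic lengths are deposited too. Recomputing FPKM from counts, lengths and 1 constant per library matched 100% of the values to within 0.01. The constant was estimated from the deposited FPKM and was 100.003% to 100.014% of the library total. A further 24 per-sample columns of 12 libraries have names that match no sample label and were not used here.

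Members were found by their mean FPKM. Fold changes come from edgeR 4.0.16 (glmQLFit and glmQLFTest on counts, TMM, Benjamini-Hochberg over the 20621 expressed genes, R 4.3.3), with library totals in place of TMM as the second scale. The standard error is the size of the log2 fold change divided by the square root of F. DESeq2 1.42.0, limma 3.58.1 on log2(FPKM + 1), other thresholds and each library left out were alternatives. On simulated data for CF1 vs. F1 over 20621 genes, edgeR called 195 of 200 genes changed by 2 on the log2 scale (97.5%) and 11 unchanged genes. The simulation changed only these 200 genes, as many up as down, whereas 9065 genes were called in the data. It therefore holds no shift in scale between the groups and cannot decide between TMM and library totals. The replicates are biological by the study's description, and the depth limits no member.

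The members, lists and tests were chosen with earlier results of these data known. Named genes are the 10 highest members, the 8 smallest and 8 largest ratios, the 8 closest to 1, the 3 just inside and 3 just outside the threshold, the 3 steadiest and 3 most variable, and the qRT-PCR reference. Members with a telling RefSeq name and their relatives, and GRMZM2G057186 for its primers, were added after their values were seen. Gene names are those of RefSeq for the assembly Zm-B73-REFERENCE-NAM-5.0, whose coordinates were not taken. They matched 64 of the 73 members and 18908 gene IDs in all. Grouping by gene description and the search for promoter motifs, both planned, could not be run with the reference used here, and names took their place. Primer sequences are those of the study, and the reference gene was found by its transcript accession.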

Additional observations from a re-analysis of the deposited data

How the results depend on the processing

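The number of members followed the threshold: it was 73 at 300 FPKM, 122 at 200 FPKM, 32 at 500 FPKM and 165 with TPM, which rescales the FPKM of every library to a common total above its own. It was 60 with every replicate at the threshold and 57 with TMM-scaled FPKM, 53 of them shared, and with each library left out it lay between 69 and 74. Members called higher numbered 1 with edgeR and TMM, 2 with edgeR and library totals, 3 with limma on log2(FPKM + 1) and 3 with limma on log2(FPKM + 0.1). Members called lower numbered 53, 34, 35 and 35 in the same order, and 51 to 55 with each library left out, where 1 remained called higher. The median log2 fold change of the members was -1.78 with TMM, -0.98 with library totals, -0.97 and -0.97 with limma, and between -1.81 and -1.66 with each library left out. Library totals without the genes at 300 FPKM or more in either group were chosen after seeing the data. They gave 66 members, 62 of them shared, 51 called lower, 1 called higher and a median of -1.46. With these totals, 9441 of the 20621 expressed genes were called in either direction. By summed FPKM the members took 28.2% of CF1 and 10.1% of F1, against 26.0% and 9.37% of the counts, and with each library left out 25.8% to 26.2% and 9.10% to 9.68%. Calls among all 20621 expressed genes, in either direction, numbered 9065 with TMM and 11178 with library totals. With limma they numbered 9157 on log2(FPKM + 1) and 11101 on log2(FPKM + 0.1). With TMM and each library left out they numbered 8807 to 9113. Without the third CF1 library, GRMZM5G836910 (-0.94) and GRMZM5G896082 (-0.93) were no longer called lower. DESeq2's Wald test gave the same call as edgeR for all 73 members, as did all genes with at least 1 count. Same-numbered libraries showed no shared deviation from the group means, with correlations between -0.02 and 0.03. The sample labels do not say whether equal numbers pair the samples. With the replicate number as a block, 53 members were called lower, 1 higher, and 8948 expressed genes in all, and the median of the members was -1.77. The promoter motif alternative was not run. With at least 3389 counts for every member in each library, depth limits none of these values.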
